A study of Canis lupus familiaris with 29 samples.

Results

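The genes described here mark macrophages and neutrophils, the phagocytic cells of the innate immune system, or control how these cells grow, move and sense their surroundings. They were chosen by gene name from what they are known to do, with earlier results of these data known, and 38 were listed. In the table of 30951 genes, 33 of the 38 were found by name, while CD14, TYROBP, ITGAX, TLR8 and S100A9 were not found by name and are not analysed here. Expression was measured in dogs by RNA sequencing of pheochromocytomas and paragangliomas (PPGLs), tumors of the chromaffin cells of the adrenal medulla and the paraganglia, and of normal adrenal medulla (NAM). The 29 samples comprised 10 NAMs of healthy research dogs, 7 PPGLs of group 1 and 12 of group 2, all of these tumors from client-owned dogs. The authors drew the 2 PPGL groups from a principal component analysis of these same tumors, so that p-values between the groups describe that split. Ages are not given in the labels, and the origin of the dogs and the tissue cannot be told apart in the comparison of PPGLs with NAMs.

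Macrophages settle in most tissues, where their growth and survival depend on the receptor CSF1R and its ligands CSF1 and IL34, and they clear dead cells, iron and debris with the help of scavenger receptors and complement component C1q. Neutrophils circulate in blood, mature under the signal of the receptor CSF3R and carry large stores of S100 proteins and granule enzymes such as myeloperoxidase. In tumors, infiltrating cells of both kinds can support or restrain growth, and in the adrenal gland resident macrophages are a normal part of cortex and medulla. In bulk tissue, fewer cells of a type and less RNA per cell cannot be told apart.

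Counts summed over all genes were 19258054 to 35918182 per NAM (median 25494016.5), 18493540 to 31919833 per group 1 tumor (median 20825468) and 18208718 to 24569667 per group 2 tumor (median 22051743). At these depths 3 counts, taken as the smallest amount that can be shown, correspond to 0.0835 to 0.156 CPM (counts per 1e6 counts) per NAM and to 0.0940 to 0.165 CPM per PPGL, which covers counting error only. Levels are given as TMM-normalized CPM, as the lowest, median and highest sample of a group. Differences are given as log2 fold change (FC) with standard error (SE), and edgeR's quasi-likelihood test over all genes past a low-count filter supplied both, as well as the FDR-adjusted p. A gene was called at an adjusted p below 0.05 between PPGLs and NAMs and below 0.1 between the PPGL groups.

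A few libraries stood apart. Tumor 11 of PPGL group 2 had the highest level of the 19 PPGLs for 20 of the 28 members with a median of at least 1 CPM in PPGLs, and was among the highest 3 for 26 of them. It held 80.1% of the CSF3R signal summed over the 19 PPGLs, 89.8% of that of MARCO and 58.8% of that of S100A12. Tumor 9 of group 2 was highest for 4 of the 28, the C1q genes and SIGLEC1, and among the highest 3 for 20. Among the NAMs, sample 3 was lowest for 17 of the 27 members with a median of at least 1 CPM and sample 10 was highest for 15. Some results are therefore given with and without these samples.

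Between PPGLs and NAMs, 31 of the 33 members passed the low-count filter, and MARCO and CXCR2 did not. Of the 31, 4 were higher in PPGLs, against 22.3% of all 14766 genes tested, and 4 were lower, against 15.2% of all genes. The genes that rose were the neutrophil genes S100A8, S100A12, MPO and CSF3R, and those that fell were CSF1, its receptor CSF1R, the mannose receptor MRC1 and TLR2. Among those that rose, MPO passed the low-count filter only through the PPGLs. The members' log2 FCs had a median of -0.05, with MPO at its lower bound too, against 0.13 over all genes tested, and 15 of 31 were above 0. In this fit the shares of called members were no larger than those of all genes, which did not hold in some other fits. Without tumor 11 of group 2, 3 members (9.68%) were higher and 6 (19.4%) lower, against 22.7% and 16.1% of all genes. The median log2 FC was then -0.38. Without that tumor and NAM 3 together, 3 (9.68%) were higher and 9 (29%) lower, against 21.5% and 15.9% of all genes, with a median of -0.46. By the Mann-Whitney U-test with all samples, 3 (9.68%) were higher and 8 (25.8%) lower, against 19.7% and 20.2% of all genes.

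Between PPGL group 1 and group 2, all 33 members passed the filter. In group 1, 4 were lower than in group 2, namely TREM1, CD80, CSF3R and S100A12, against 2.95% of the 14666 genes tested. None was higher by edgeR's quasi-likelihood test (0 members, also 0 at an unadjusted p below 0.05, 0 by DESeq2's Wald test and 0 by the Mann-Whitney U-test), against 3.97% of all genes. The Mann-Whitney U-test called 0 members lower too, so that all 4 of these calls were lost by it, while DESeq2's Wald test kept the 4. The median log2 FC of the members was -0.78, against 0.04 over all genes, and MPO was the 1 member of 33 with a log2 FC above 0. Without tumor 11 of group 2, TREM1 was the 1 member called (3.03%, against 2.59% of all genes lower) and the median was -0.24. Without tumors 9 and 11 TREM1 was again the 1 member called (3.33%, against 2.69% of all genes lower), and the median was 0.03. TREM1 was also the 1 member called without tumor 1, 4, 6 or 7 of group 1 or tumor 4 of group 2. In these fits 1.82% to 3.27% of all genes were lower. Without tumor 2 or 3 of group 1 or tumor 12 of group 2, 2 members were called (6.06%, against 2.46% to 2.78% of all genes). At an adjusted p below 0.05, 1 member (TREM1) was lower, against 1.43% of all genes, and 0 were higher, against 1.77%. In either direction the threshold of 0.1 called 6.92% of all genes. For 0 members did every group 1 tumor lie above every group 2 tumor (0.0341% of all genes) or below every one (0.15%). Leaving out tumors 9 and 11 together was chosen after seeing the data, in which tumor 11 ranked first of 19 for 20 of 28 members and tumor 9 was among the highest 3 for 20 of 28, and to leave out high tumors of group 2 by itself moves the median upward. Without tumor 9 alone, 4 members were called (12.1%, against 2.85% of all genes lower) and the median was -0.65.

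**Figure D1:**
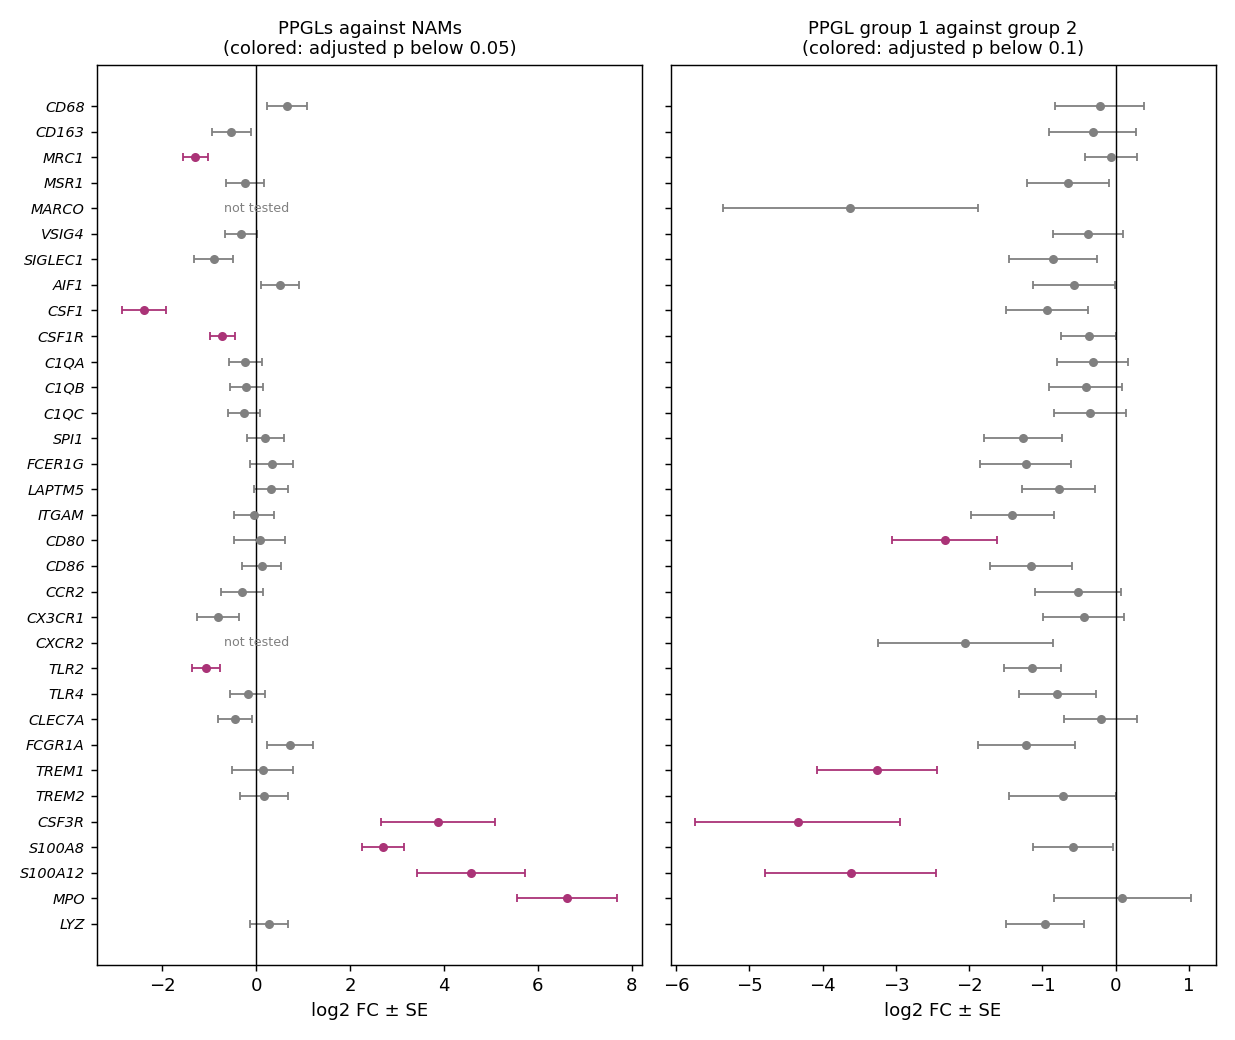
The log2 FC ± SE of each macrophage and neutrophil gene is plotted for PPGLs against NAMs (left, 29 samples) and for PPGL group 1 against group 2 (right, 19 tumors), with colored points for genes past the FDR threshold of each comparison and the words "not tested" for genes that did not pass the low-count filter. On the left, 4 of the 5 neutrophil genes at the bottom lie to the right of 0 and are colored, and on the right, 32 of the 33 points lie to the left of 0.

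CSF1, on chromosome 6 from 42034149 to 42049371 of CanFam3.1, encodes the main growth and survival factor of macrophages. It ranged from 18.8 to 338 CPM in NAMs (median 54.3), from 4.90 to 24.3 CPM in group 1 (median 9.84) and from 2.68 to 73.9 CPM in group 2 (median 12.8). Most tumors thus lay under the whole range of the NAMs, and 13 of 19 were below every NAM. The log2 FC in PPGLs was -2.40 (SE 0.46, FDR-adjusted p = 0.000216), and it was between -2.67 and -1.92 when each sample was left out in turn. NAM 3, with the highest CSF1 level, was the sample whose removal gave the value closest to 0. Once the cortical score, described further on, was a covariate, the log2 FC was -2.02 and the call was lost (FDR-adjusted p = 0.0606).

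CSF1R, on chromosome 4 from 58980788 to 59010510, encodes the receptor through which CSF1 and IL34 act, and is present on nearly all macrophages. Levels were 51.7 to 145 CPM in NAMs (median 101), 26.8 to 74.7 CPM in group 1 (median 49.0) and 17.1 to 193 CPM in group 2 (median 46.9). The medians of both tumor groups lay below the lowest NAM, with 12 of 19 tumors below every NAM, while tumor 11 of group 2 was above every NAM. The log2 FC was -0.72 with an SE of 0.26 (FDR-adjusted p = 0.0309), and -0.93 (SE 0.21, FDR-adjusted p = 0.000924) without that tumor. Without NAM 2, which had the highest CSF1R level of the NAMs, the call was lost (FDR-adjusted p = 0.0555). It was lost also with the cortical score as a covariate (log2 FC -0.86, FDR-adjusted p = 0.164). Neither CSF1 nor its receptor differed between the PPGL groups past the threshold, with log2 FCs of -0.94 (SE 0.56) and -0.37 (SE 0.38) in group 1.

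IL34, the other ligand of CSF1R, was read from the list of myeloid ligands described below. It ranged from 30.0 to 89.3 CPM in NAMs (median 62.2), from 7.77 to 47.5 CPM in group 1 (median 23.0) and from 11.7 to 58.4 CPM in group 2 (median 31.8). The ligand was lower in PPGLs as well (log2 FC -0.99, SE 0.24, FDR-adjusted p = 0.00207). Both ligands and the receptor of this pathway were thus lower in PPGLs than in NAMs, with ranges that overlapped for each of the 3 genes. With the cortical score as a covariate none of the 3 was called.

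Of the surface proteins used to recognize macrophages, MRC1 (chromosome 2 from 19069120 to 19185691), the mannose receptor of resident and tissue-repairing macrophages, showed the clearest difference. Its levels were 20.9 to 97.9 CPM in NAMs (median 74.9), 10.7 to 57.1 CPM in group 1 (median 23.2) and 12.5 to 72.4 CPM in group 2 (median 25.1). No tumor of the 19 exceeded the median of the NAMs, and the overlap with the NAMs came largely from NAM 3, which had 20.9 CPM where the next NAM had 52.8 CPM. The log2 FC was -1.30 with an SE of 0.26 (FDR-adjusted p = 0.000335), and -1.55 (SE 0.22) without NAM 3 and tumor 11 of group 2. Among the members called lower, MRC1 was the 1 that kept its call with the cortical score as a covariate (log2 FC -1.40, FDR-adjusted p = 0.0231). Between the tumor groups its log2 FC was -0.06 (SE 0.35).

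CD163, the receptor that takes up hemoglobin bound to haptoglobin, ranged from 20.1 to 149 CPM in NAMs (median 104), from 16.3 to 117 CPM in group 1 (median 43.5) and from 13.6 to 299 CPM in group 2 (median 40.8). The medians of the tumor groups were under those of the NAMs, but the highest tumor was above every NAM and the log2 FC of -0.53 (SE 0.42) did not pass the threshold (FDR-adjusted p = 0.329), while the Mann-Whitney U-test called CD163 lower (adjusted p = 0.0416). Without tumor 11 of group 2 and NAM 3, which were the highest tumor and the lowest NAM, it was -0.99 (SE 0.35, FDR-adjusted p = 0.0248). SIGLEC1, the sialic acid receptor of resident macrophages, ranged from 4.14 to 19.9 CPM in NAMs (median 12.8), from 2.18 to 8.66 CPM in group 1 (median 3.86) and from 0.894 to 28.6 CPM in group 2 (median 4.83). Only 2 of the 19 tumors, both of group 2, were above the NAM median of SIGLEC1. Its log2 FC was -0.91 with an SE of 0.42 (FDR-adjusted p = 0.0870) and passed the threshold without tumor 9 of group 2 and, separately, without tumor 11 (log2 FC -1.17, FDR-adjusted p = 0.0145). With all samples SIGLEC1 was called lower by the Mann-Whitney U-test (adjusted p = 0.00511), with the sample number as a block (log2 FC -1.37) and with all 3 groups in the fit (log2 FC -1.08), and not by DESeq2's Wald test.

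CD68, a lysosomal glycoprotein that is widely used to count macrophages on sections, did not follow these receptors. It ranged from 6.29 to 17.4 CPM in NAMs (median 12.4), from 4.79 to 38.4 CPM in group 1 (median 15.6) and from 3.28 to 102 CPM in group 2 (median 12.2). Low and high tumors lay on both sides of the NAMs, 10 of 19 being above the NAM median, and the log2 FC was 0.65 with an SE of 0.43 (FDR-adjusted p = 0.243), and 0.25 (SE 0.34) without tumor 11 of group 2. AIF1, a calcium-binding protein of activated macrophages, had a log2 FC of 0.51 (SE 0.40), or 0.22 without that tumor, with 7 of 19 tumors above the NAM median. The scavenger receptor MSR1 and the complement receptor VSIG4 had log2 FCs of -0.24 (SE 0.40) and -0.33 (SE 0.34), or -0.57 and -0.58 without it, and neither was called.

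MARCO, a scavenger receptor of a subset of macrophages, was near the limit of counting in most samples. In 9 of 10 NAMs and in 10 of 19 PPGLs it had no more than 3 counts, while tumor 11 of group 2 had 102 CPM and the next tumor 2.95 CPM. With all samples it did not pass the filter of the fit reported between PPGLs and NAMs. By edgeR's test it was called higher in PPGLs without the filter (log2 FC 5.06, FDR-adjusted p = 0.0148). With all 3 groups in the fit it passed and was called higher too (log2 FC 3.90, FDR-adjusted p = 0.0261). In each of 9 fits that left out 1 NAM, all but that without NAM 10, it passed and was called higher in PPGLs, with log2 FCs of 4.96 to 5.05, a value that rests on tumor 11 of group 2. Between the tumor groups the log2 FC was -3.62 with an SE of 1.75 (FDR-adjusted p = 0.260), and 0.40 (SE 0.98) without that tumor.

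The 3 chains of C1q, the recognition unit of the classical complement pathway that macrophages make in large amounts, were the most abundant members in NAMs per length of exon. Their medians in NAMs were 178 CPM per kilobase (kb) for C1QA, 218 CPM per kb for C1QB and 211 CPM per kb for C1QC, and each was lower in both tumor groups, at 108, 140 and 133 CPM per kb in group 1. As levels per gene, C1QA ranged from 84.8 to 314 CPM in NAMs (median 165), from 47.0 to 270 CPM in group 1 (median 100.3) and from 36.6 to 566 CPM in group 2 (median 116). The tumors spread to both sides of the NAMs, with 7 of 19 below every NAM and 2 above every NAM, and the highest level was that of tumor 9 of group 2. The log2 FC of C1QA was -0.23 (SE 0.35, FDR-adjusted p = 0.629) in PPGLs and -0.31 (SE 0.49, FDR-adjusted p = 0.772) in group 1, and C1QB and C1QC had log2 FCs of -0.21 and -0.26 in PPGLs and of -0.41 and -0.35 in group 1. The 95% interval of the C1QA log2 FC in PPGLs, from -0.91 to 0.45, leaves room for a change in either direction.

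SPI1, the transcription factor that drives myeloid development, ranged from 6.33 to 15.9 CPM in NAMs (median 9.22), from 2.85 to 10.8 CPM in group 1 (median 5.07) and from 2.99 to 52.9 CPM in group 2 (median 9.34). Its log2 FC was 0.19 with an SE of 0.40 (FDR-adjusted p = 0.737) in PPGLs, and between the tumor groups it was -1.26 (SE 0.53, FDR-adjusted p = 0.199). The group 2 median was close to that of the NAMs, and 1 of 7 group 1 tumors was above the NAM median. FCER1G, the signalling chain of Fc receptors, and LAPTM5, a lysosomal protein of blood cells with a gene model of 180.3 kb, had log2 FCs of 0.32 in PPGLs, with SEs of 0.45 and 0.37. With tumor 11 of group 2 left out, the log2 FCs in PPGLs were -0.15 for SPI1, -0.26 for FCER1G and -0.05 for LAPTM5, so that their sign rests on that tumor. In the fits reported none of these 3 genes was called in either comparison, but SPI1 was called lower in group 1 by DESeq2's Wald test and by edgeR's test with all 3 groups in the fit.

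ITGAM encodes the integrin chain CD11b of neutrophils, monocytes and many macrophages. It ranged from 9.39 to 27.0 CPM in NAMs (median 18.3), from 6.04 to 11.3 CPM in group 1 (median 9.75) and from 4.61 to 130 CPM in group 2 (median 13.3). Apart from tumor 11 of group 2, whose level was 5.26 times that of the next tumor, tumor 9 of group 2 (24.7 CPM) was the 1 PPGL above the NAM median, and 6 of 19 were below every NAM. The log2 FC of ITGAM was -0.05 (SE 0.42, FDR-adjusted p = 0.934) with all samples and -0.69 (SE 0.23, FDR-adjusted p = 0.0161) without tumor 11. With all samples, ITGAM was called lower by DESeq2's Wald test (log2 FC -0.70, adjusted p = 0.00727), by the Mann-Whitney U-test (adjusted p = 0.0330) and with the sample number as a block (log2 FC -0.68, adjusted p = 0.0184). The gene model of ITGAM holds 11495 bases of exon over 187.3 kb and contains other genes within its span, and it shares 62 bases of exon with COX6A2 on the other strand, so its level is uncertain.

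CD80 and CD86 are the ligands by which macrophages and dendritic cells give T cells a costimulatory signal. CD80, on chromosome 33 from 23177138 to 23201380, ranged from 2.10 to 6.31 CPM in NAMs (median 3.74), from 0.403 to 2.29 CPM in group 1 (median 1.07) and from 0.551 to 31.5 CPM in group 2 (median 3.52). All group 1 tumors were below the median of group 2, and 8 of 12 group 2 tumors were above every group 1 tumor. The log2 FC of group 1 against group 2 was -2.33 (SE 0.72, FDR-adjusted p = 0.0768), and without tumor 11 of group 2 it was -1.58 (SE 0.53, FDR-adjusted p = 0.111). CD80 was called in 12 of 19 fits that left out 1 tumor. Against NAMs the log2 FC of all PPGLs was 0.08 (SE 0.54), and -0.60 (SE 0.40) without tumor 11. CD86 had log2 FCs of 0.12 (SE 0.41) in PPGLs, or -0.31 (SE 0.31) without tumor 11, and -1.16 (SE 0.56, FDR-adjusted p = 0.265) in group 1, and was not called.

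The chemokine receptors CCR2, which guides monocytes out of the bone marrow, and CX3CR1, which marks patrolling monocytes and several resident macrophages, were at low levels. CCR2 ranged from 0.0536 to 2.02 CPM over all samples, with 3 of 19 tumors at or under 3 counts. CX3CR1 had medians of 5.14 CPM in NAMs and 2.42 CPM over all PPGLs, and its log2 FC in PPGLs was -0.82 (SE 0.45, FDR-adjusted p = 0.155). The neutrophil chemokine receptor CXCR2 did not pass the filter between PPGLs and NAMs, and 4 of 10 NAMs and 7 of 19 PPGLs were at or under 3 counts. Its highest NAM had 0.307 CPM, while tumor 11 of group 2 had 11.7 CPM and tumor 6 of group 2 had 5.94 CPM. Without the filter the log2 FC of CXCR2 in PPGLs was 3.25 (SE 1.01, FDR-adjusted p = 0.0169), and with all 3 groups in the fit it was 2.72 (SE 0.94, FDR-adjusted p = 0.0225).

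Among the receptors that sense microbes, TLR2, on chromosome 15 from 51454695 to 51465241, which recognizes bacterial lipoproteins, was lower in PPGLs. It ranged from 25.0 to 71.5 CPM in NAMs (median 49.3), from 6.51 to 25.6 CPM in group 1 (median 12.9) and from 8.60 to 61.6 CPM in group 2 (median 25.6). Only 1 tumor exceeded the NAM median, 12 of 19 were below every NAM, and 6 of 12 group 2 tumors were above every group 1 tumor. The log2 FC in PPGLs was -1.07 (SE 0.31, FDR-adjusted p = 0.0069), and it remained called in all 29 fits that left out 1 sample. Adjusted for the cortical score it was -0.31 (SE 0.43, FDR-adjusted p = 0.665). Between the tumor groups the log2 FC was -1.14 with an SE of 0.39 (FDR-adjusted p = 0.110), which did not pass the threshold, and 4 of 19 fits that left out 1 tumor called it. With all tumors TLR2 was called lower in group 1 by DESeq2's Wald test (adjusted p = 0.0376) and with all 3 groups in the fit (adjusted p = 0.0313), while its Mann-Whitney U-test had an adjusted p of 0.213.

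TLR4, the receptor of bacterial lipopolysaccharide, and CLEC7A, the receptor of fungal glucans with a gene model of 154.1 kb that has 3 other genes inside it, had log2 FCs of -0.18 (SE 0.37) and -0.45 (SE 0.37) in PPGLs, and both passed the threshold when tumor 11 of group 2 and NAM 3 were left out together (-0.68 and -0.85), TLR4 also by the Mann-Whitney U-test with all samples (adjusted p = 0.0464). FCGR1A, the high-affinity receptor of immunoglobulin G, had a log2 FC of 0.72 (SE 0.50, FDR-adjusted p = 0.263), and 0.15 (SE 0.36) without tumor 11. TREM2, a lipid receptor of macrophages in damaged tissue and tumors, ranged from 3.37 to 14.5 CPM in NAMs (median 8.55), from 0.919 to 18.1 CPM in group 1 (median 4.00) and from 1.02 to 59.8 CPM in group 2 (median 4.56). Its tumors spread over a wider range than the NAMs on both sides, and the log2 FC was 0.17 with an SE of 0.51 (FDR-adjusted p = 0.822), and -0.32 (SE 0.41) without tumor 11.

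TREM1, on chromosome 12 from 9990679 to 10000236, encodes a receptor of neutrophils and monocytes that amplifies inflammatory signals. Its levels were 0.616 to 5.69 CPM in NAMs (median 1.68), 0.115 to 0.560 CPM in group 1 (median 0.372) and 0.0394 to 18.1 CPM in group 2 (median 1.92). All 7 group 1 tumors lay below every NAM, while group 2 covered the NAM range, and 10 of 12 group 2 tumors were above every group 1 tumor. The log2 FC of group 1 against group 2 was -3.25 (SE 0.82, FDR-adjusted p = 0.0356), and it was called in all 19 fits that left out 1 tumor, with values of -3.38 to -2.53. It was -2.29 (SE 0.62, FDR-adjusted p = 0.0527) without tumors 9 and 11 of group 2. By the Mann-Whitney U-test TREM1 had an adjusted p of 0.131. Over all alternatives other than leaving out 1 tumor, the adjusted p of TREM1 ranged from 0.000267 (DESeq2's Wald test) to 0.438 (sample number as a block).

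**Figure D2:**
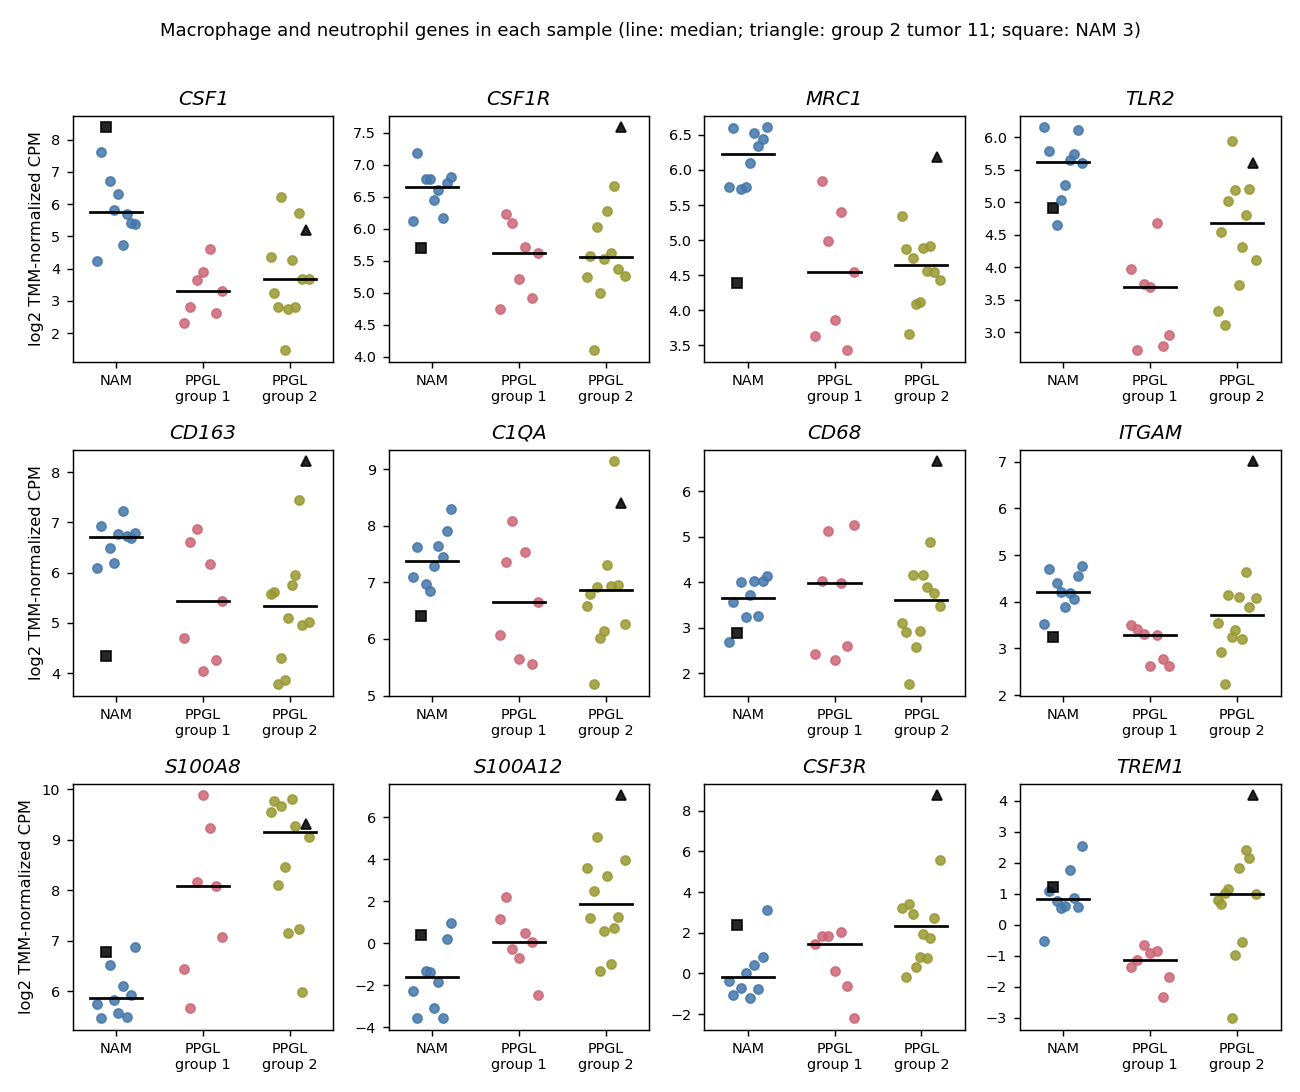
Each point is 1 sample, with the log2 TMM-normalized CPM (prior count 2) of 12 macrophage and neutrophil genes on the vertical axes and the NAMs (10), PPGL group 1 (7) and PPGL group 2 (12) side by side; lines mark group medians, the triangle tumor 11 of group 2 and the square NAM 3. CSF1, CSF1R, MRC1 and TLR2 have lower medians in both tumor groups than in NAMs, S100A8 has higher ones, and TREM1 is low in all 7 group 1 tumors.

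S100A8, on chromosome 7 from 43501989 to 43541604, encodes 1 chain of calprotectin, the calcium-binding protein that fills the cytoplasm of neutrophils and is also made by monocytes and some epithelial and tumor cells. Levels were 44.0 to 118 CPM in NAMs (median 58.6), 50.5 to 945 CPM in group 1 (median 272) and 63.1 to 893 CPM in group 2 (median 573). High levels were thus a feature of most tumors of both groups, 16 of 19 tumors being above every NAM, and the 3 exceptions were tumors 1 and 2 of group 1 and tumor 10 of group 2. The log2 FC was 2.70 with an SE of 0.45 (FDR-adjusted p = 4.05e-05), a 6.51-fold difference, and it lay between 2.61 and 2.82 when each sample was left out in turn. The call of S100A8 was kept in all 29 fits that left out 1 sample, as were those of S100A12 and MPO but not that of CSF3R, and its highest tumor held 11.2% of the summed signal of the PPGLs. Adjusted for the cortical score, S100A8 had a log2 FC of 2.97 (SE 0.57, FDR-adjusted p = 0.00104). The tumor groups did not differ past the threshold (log2 FC -0.58, SE 0.55, FDR-adjusted p = 0.599).

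Per kb of exon, S100A8 had a median of 50.3 CPM per kb in NAMs, where it ranked 4 of 33 members after the C1q genes. In the tumors it ranked 1 of 33, with medians of 234 CPM per kb in group 1 and 492 CPM per kb in group 2. The gene model of S100A8 spans 39.6 kb and holds 1166 bases of exon, with no other gene inside it, and whether all of this exon belongs to S100A8 was not tested, so its level and its rank per kb are uncertain. The partner chain S100A9 was not found by name, so that it is not known from these values whether both chains of calprotectin moved together.

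S100A12, on chromosome 7 from 43554146 to 43555475, encodes a related protein that is restricted mainly to neutrophils and monocytes. It was scarce in NAMs, at 0 to 1.86 CPM (median 0.247), and ranged from 0.0988 to 4.51 CPM in group 1 (median 0.978) and from 0.315 to 134 CPM in group 2 (median 3.92). The log2 FC in PPGLs was 4.57 (SE 1.16, FDR-adjusted p = 0.00273), and 3.35 (SE 0.91, FDR-adjusted p = 0.00456) without tumor 11 of group 2. The gene was above every NAM in 10 of 19 tumors, and 4 of 10 NAMs were at or under 3 counts. In group 1 it was lower than in group 2 by edgeR's test (log2 FC -3.62, SE 1.17, FDR-adjusted p = 0.0903), and not past the threshold without tumor 11 (log2 FC -2.33, SE 0.89, FDR-adjusted p = 0.160). Of 19 fits that left out 1 tumor, 9 kept this call.

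CSF3R, on chromosome 15 from 5822025 to 5831882, encodes the receptor of granulocyte colony-stimulating factor and is expressed mainly on neutrophils and their precursors. Levels were 0.349 to 8.58 CPM in NAMs (median 0.820), 0.132 to 4.01 CPM in group 1 (median 2.67) and 0.804 to 437 CPM in group 2 (median 5.20). Although 16 of 19 tumors were above the NAM median, NAM 10 reached 8.58 CPM, and 4 tumors were above every NAM and 1 below every NAM. A single library, tumor 11 of group 2 with 437 CPM, was 9.29 times the next tumor. The log2 FC in PPGLs was 3.87 (SE 1.21, FDR-adjusted p = 0.0123) with it and 1.60 (SE 0.72, FDR-adjusted p = 0.0805) without it. Between the tumor groups the log2 FC was -4.34 with an SE of 1.40 (FDR-adjusted p = 0.0899) with it and -1.91 (SE 0.81, FDR-adjusted p = 0.214) without it, and the call between the groups was kept in 9 of 19 fits that left out 1 tumor. Against NAMs CSF3R was called by DESeq2's Wald test (log2 FC 2.04, adjusted p = 0.00251) and with the sample number as a block (log2 FC 1.45, SE 0.52, adjusted p = 0.0410), where number 11 has no NAM and adds nothing to the difference, but not by the Mann-Whitney U-test (adjusted p = 0.0773) or with all 3 groups in the fit (log2 FC 2.32, adjusted p = 0.0547).

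MPO, on chromosome 9 from 32927483 to 32937820, encodes myeloperoxidase, a granule enzyme transcribed in neutrophil precursors and largely silent in mature neutrophils. The 10 NAMs held 2 counts in all, with 8 of 10 at 0, while the tumors ranged from 0.120 to 3.75 CPM in group 1 (median 0.518) and from 0 to 5.90 CPM in group 2 (median 0.489). Levels in tumors were low but present, as 18 of 19 were above every NAM and 15 had more than 3 counts. Against a floor of 3 counts in each NAM, the median level in PPGLs of 0.503 CPM was at least 4.17-fold higher and the mean of 1.26 CPM, raised by a few tumors, at least 10.5-fold higher. The fitted log2 FC of 6.63 (SE 1.07, FDR-adjusted p = 2.83e-05) depends on how counts of 0 are treated and is no bound. With all 10 NAMs at or under 3 counts, MPO passed the low-count filter only through the PPGLs, where it is high. Its call and adjusted p are therefore no separate support for a rise. In group 1 against group 2 its log2 FC was 0.09 with an SE of 0.93 (FDR-adjusted p = 0.968).

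LYZ, the lysozyme gene of neutrophils and macrophages, ranged from 12.8 to 82.1 CPM in NAMs (median 26.4), from 11.9 to 36.2 CPM in group 1 (median 21.5) and from 8.85 to 239 CPM in group 2 (median 25.1). It was alone among the 5 neutrophil genes in showing similar medians in all 3 groups, and its log2 FC was 0.27 with an SE of 0.41 (FDR-adjusted p = 0.639), and -0.28 (SE 0.25) without tumor 11 of group 2.

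To describe which members varied together, 7 pairs of genes were compared across the 19 PPGLs and, separately, across the 10 NAMs, on log2 TMM-normalized CPM. This gave 14 relations with 28 two-sided permutation p-values (100000 permutations, p = 1e-05 being the smallest they can give), which were adjusted together by the Benjamini-Hochberg method. The C1q chains C1QA and C1QB varied closely together in the PPGLs, with Pearson's r of 0.99 and Spearman's rho of 0.99 (permutation p = 1e-05 and adjusted p = 3.5e-05 for both), r of 0.99 without the 2 tumors farthest from the median of C1QA, 0.99 within group 1 and 0.99 within group 2. C1QA and CSF1R had r of 0.88 and rho of 0.92 (permutation p = 1e-05, adjusted p = 3.5e-05 for both), with r of 0.85 without the 2 farthest tumors, 0.87 within group 1 and 0.89 within group 2. C1QA and CD163 had r of 0.91 and rho of 0.90 (permutation p = 1e-05, adjusted p = 3.5e-05 for both), with r of 0.89 without the 2 farthest tumors, 0.98 within group 1 and 0.88 within group 2. Tumors with high C1q were therefore also those with high CSF1R and CD163, in both tumor groups.

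The ligand CSF1 and its receptor CSF1R had r of 0.63 (permutation p = 0.00386, adjusted p = 0.00993) and rho of 0.63 (permutation p = 0.00461, adjusted p = 0.00993) across the PPGLs. It was 0.67 without the 2 farthest tumors, 0.41 within group 1 and 0.67 within group 2. In the NAMs this pair had r of -0.07 and rho of 0.12 (permutation p = 0.839 and 0.756, adjusted p = 0.971 and 0.921), with r of 0.43 without the 2 farthest samples, NAM 3 and NAM 2, and 0.67 without NAM 3 alone, the sample with the highest CSF1 and the lowest CSF1R. NAM 3 thus set the value in the NAMs.

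Of the macrophage genes, S100A8 was compared with C1QA alone. With it, S100A8 had r of -0.04 and rho of 0.01 across the PPGLs (permutation p = 0.883 and 0.986, adjusted p = 0.971 and 1), with r of 0.07 without the 2 farthest tumors, -0.15 within group 1 and -0.02 within group 2. With the neutrophil receptor CSF3R it had r of 0.20 and rho of 0.13 (permutation p = 0.431 and 0.590, adjusted p = 0.575 and 0.751), with r of 0.30 without the 2 farthest tumors, -0.05 within group 1 and 0.14 within group 2. No relation of S100A8 with either gene was thus detectable over the 19 tumors. In the NAMs, S100A8 and CSF3R had r of 0.83 (permutation p = 0.00441, adjusted p = 0.00993) and rho of 0.83 (permutation p = 0.00458, adjusted p = 0.00993), but r was 0.40 without NAM 3 and NAM 10, so that the relation rests on these 2 samples.

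**Figure D3:**
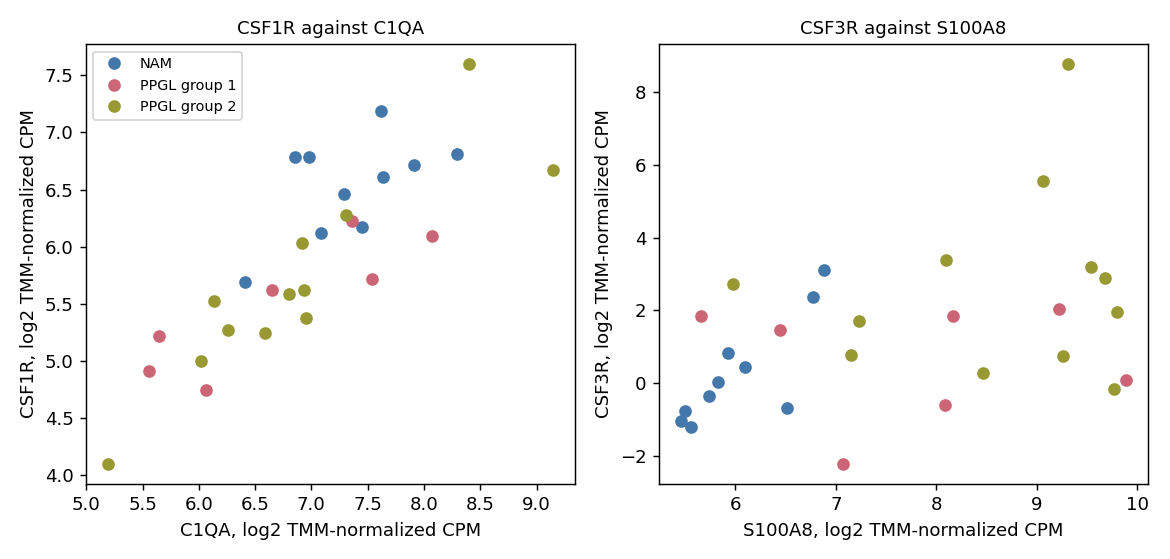
CSF1R is plotted against C1QA (left) and CSF3R against S100A8 (right), both on a log2 scale of TMM-normalized CPM (prior count 2), with 1 point per sample colored by group. Over the 19 PPGLs the left pair has r of 0.88, and the right pair r of 0.20, with most tumors far to the right of the NAMs on the S100A8 axis.

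In the NAMs, C1QA and C1QB had r and rho of 0.99 (permutation p = 1e-05, adjusted p = 3.5e-05 for both), and 0.98 as r without the 2 farthest samples. C1QA and CD163 had r of 0.76 (permutation p = 0.00616, adjusted p = 0.0123) and rho of 0.77 (permutation p = 0.0127, adjusted p = 0.0222), and r of 0.73 without the 2 farthest samples. C1QA and CSF1R had r of 0.57 (permutation p = 0.0840, adjusted p = 0.138) and rho of 0.44 (permutation p = 0.205, adjusted p = 0.301), which fell to r of 0.18 without them. For C1QA and S100A8, r was -0.04 (permutation p = 0.902, adjusted p = 0.971) and rho 0.01 (permutation p = 1, adjusted p = 1), with r of -0.24 without the 2 farthest samples. C1QA and CD163 thus varied together in normal tissue too, though r was 0.63 without NAM 3 alone. No relation of C1QA with CSF1R was detectable in the 10 NAMs.

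T cells were set beside the macrophages through CD3E, a chain of the T cell receptor complex. In the PPGLs, C1QA and CD3E had r of 0.69 (permutation p = 0.00099, adjusted p = 0.00308) and rho of 0.60 (permutation p = 0.0078, adjusted p = 0.0146), with r of 0.57 without the 2 farthest tumors, 0.52 within group 1 and 0.77 within group 2. In the NAMs r was 0.39 (permutation p = 0.268, adjusted p = 0.375) and rho 0.48 (permutation p = 0.165, adjusted p = 0.257), with r of 0.37 without the 2 farthest samples. Tumors with more C1q thus also tended to have more CD3E.

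Other genes of these cells and of their signals were read from lists set by known function. The counts of called genes in these lists, and in those of other cells below, stand against 22.3% of all genes higher and 15.2% lower in PPGLs, and against 3.97% higher and 2.95% lower in group 1. For group 1 against group 2 the Mann-Whitney U-test kept the calls of LCN2, ALAS2, FGG and 9 cortical genes, and no other call in these lists. Of 12 tested genes of the phagocyte oxidase, which makes superoxide to kill microbes, and of the tyrosine kinases and adaptors behind it, 3 were higher in PPGLs, against 22.3% of all genes, and 0 lower (0 also at an unadjusted p below 0.05, by DESeq2's Wald test and by the Mann-Whitney U-test). With the sample number as a block, 0 were called higher. The sum of the list was 149 to 272 CPM in NAMs (median 199), 182 to 599 CPM in group 1 (median 262) and 139 to 977 CPM in group 2 (median 212). LYN, a tyrosine kinase of myeloid and other cells that was the most abundant gene of this list, had a log2 FC of 1.17 (SE 0.35). RAC2, the GTPase that switches on the oxidase, had a log2 FC of 0.98 (SE 0.34). In group 1 against group 2, 0 of 12 were called in the fit reported, with 1 higher and 2 lower in group 1 at an unadjusted p below 0.05, and 1 higher and 1 lower by DESeq2's Wald test. With all 3 groups in the fit, LYN was called higher and FGR and PLEK lower in group 1, and by library size LYN was called higher. Without tumor 11 of group 2, LYN was called higher in group 1. Adjusted for the cortical score, 0 genes of this list were called in PPGLs.

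Of 25 tested further macrophage genes, 2 were higher in PPGLs, against 22.3% of all genes, and 4 were lower, against 15.2% of all genes. SLC40A1, the iron exporter ferroportin, ranged from 30.3 to 218 CPM in NAMs (median 122), from 14.2 to 61.5 CPM in group 1 (median 35.9) and from 8.93 to 101 CPM in group 2 (median 44.7), a log2 FC of -1.54 (SE 0.28). APOE, the lipid carrier that was the most abundant gene of this list and that adrenal cortex also makes, had a log2 FC of -1.44 (SE 0.46), and LYVE1, the hyaluronan receptor of lymph vessels and of macrophages along vessels, had one of -1.37 (SE 0.32). The scavenger receptor STAB1, also present on sinus endothelium, fell by 1.32 on the log2 scale (SE 0.20) and was the 1 gene of this list still called with the cortical score as a covariate. All of these 4 had lower medians in both tumor groups than in NAMs, as MRC1 did. CD4, which dog macrophages, neutrophils and T cells can carry, was higher in PPGLs, with a log2 FC of 2.88 (SE 0.85, FDR-adjusted p = 0.00863), and so was the heme-degrading enzyme HMOX1 (log2 FC 1.16, SE 0.42, FDR-adjusted p = 0.0291). Neither was called by the Mann-Whitney U-test or with the sample number as a block, and HMOX1 was not called without tumor 11 of group 2 and NAM 3 together. Group 1 had lower levels than group 2 of CSF2RA (log2 FC -3.02, SE 0.88) and of the complement receptor C5AR1 (log2 FC -2.35, SE 0.75), with 0 of 25 genes higher (0 also at an unadjusted p below 0.05 and by both other tests). By the Mann-Whitney U-test neither of the 2 was called, and without tumor 11 of group 2 CSF2RA was the 1 gene called. The list summed to 2041 to 4406 CPM in NAMs (median 3259), 1009 to 2893 CPM in group 1 (median 1609) and 1165 to 10716 CPM in group 2 (median 1913), the highest sum being that of tumor 11.

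Of the further neutrophil genes, 17 of 24 were found by name and 9 passed the filter between PPGLs and NAMs, of which 2 were higher in PPGLs, against 22.3% of all genes, and 0 lower (0 at an unadjusted p below 0.05, 0 by DESeq2's Wald test and 1 by the Mann-Whitney U-test). Of these 2, LCN2 and IL1R2, the Mann-Whitney U-test and the fit with the sample number as a block called 0 higher, DESeq2's Wald test called LCN2 alone, and the fit of all 3 groups called neither. That fit tested 12 genes and called 3 others higher (MMP8, CAMP and NFE2), and without the low-count filter 7 of 17 were higher, LCN2 among them, and 1 lower. LCN2, the iron-sequestering lipocalin of neutrophil granules, ranged from 0.379 to 1.53 CPM in NAMs (median 1.07), from 0.198 to 2.82 CPM in group 1 (median 0.492) and from 0.938 to 8.21 CPM in group 2 (median 2.86). Its rise was seen in group 2 and not in the median of group 1, with a log2 FC of 1.42 (SE 0.48, FDR-adjusted p = 0.0189) in PPGLs and of -1.83 (SE 0.54, FDR-adjusted p = 0.0657) in group 1 against group 2. The decoy receptor IL1R2 (log2 FC 2.07, SE 0.81) was not called without tumor 11 of group 2. ALOX5AP, needed to make leukotrienes, was lower in group 1 (log2 FC -1.67, SE 0.55, FDR-adjusted p = 0.0968) and was not called without tumor 11. The most abundant gene of this list was MNDA, with medians of 62.3 CPM in NAMs, 57.3 CPM in group 1 and 76.8 CPM in group 2.

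Of 16 tested ligands and cytokines that call or shape myeloid cells, 5 were higher and 1, IL34, was lower in PPGLs, against 22.3% and 15.2% of all genes. TGFB1 was the 1 gene called higher by the Mann-Whitney U-test and with the sample number as a block, where OSM, CCL3, CCL4 and IL18 were not called. OSM, a cytokine of activated neutrophils and macrophages, had medians of 0.311 CPM in NAMs, 0.326 CPM in group 1 and 1.51 CPM in group 2, but its log2 FC of 4.34 (SE 1.29) was lost without tumor 11 of group 2, which had 134 CPM. The chemokines CCL3 and CCL4 had log2 FCs of 2.47 (SE 0.88) and 2.33 (SE 0.72), of which that of CCL4 was still called without tumor 11. Group 1 had lower levels than group 2 of 4 of 17 genes and higher levels of 0 (0 also at an unadjusted p below 0.05 and by both other tests), against 2.95% and 3.97% of all genes, and by the Mann-Whitney U-test 0 were lower. CXCL8, the main neutrophil attractant, ranged from 11.7 to 346 CPM in NAMs (median 34.4), from 0.518 to 29.4 CPM in group 1 (median 1.30) and from 1.06 to 1748 CPM in group 2 (median 32.4). Most group 1 tumors thus had little CXCL8 while group 2 covered the range of the NAMs, with a log2 FC of -5.16 (SE 1.47, FDR-adjusted p = 0.0582) that was called without tumor 11 as well. CCL7, a monocyte attractant, was also lower in group 1 with and without that tumor (log2 FC -3.22, SE 0.82, FDR-adjusted p = 0.0370, with it), and CXCL10 (log2 FC -3.95, SE 1.24) only with it.

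Of 5 tested genes that restrain myeloid cells, CD200 was the 1 called in PPGLs by edgeR's test with all samples. PDCD1LG2 was called lower by the Mann-Whitney U-test, with the sample number as a block and without tumor 11 of group 2. CD200 ranged from 8.96 to 27.6 CPM in NAMs (median 15.5), from 9.16 to 105 CPM in group 1 (median 38.9) and from 12.7 to 72.9 CPM in group 2 (median 44.6), with a log2 FC of 1.21 (SE 0.31, FDR-adjusted p = 0.00303), which was not called once adjusted for the cortical score. CD47, the signal against uptake by phagocytes and the most abundant gene of the list, had medians of 126 CPM in NAMs, 135 CPM in group 1 and 136 CPM in group 2, and a log2 FC of 0.09 (SE 0.17). VSIR was lower in group 1 than in group 2 (log2 FC -1.97, SE 0.60, FDR-adjusted p = 0.0749), and not called without tumor 11.

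Markers of other cells that the tissue may hold were read in the same way. The most abundant gene of a list is the one with the highest mean CPM over all samples, with no correction for length. For the adrenal cortex, which lies around the medulla, 10 of 11 tested cortical genes were lower in PPGLs and 10 of 11 lower in group 1 than in group 2. Their summed level was 14316 to 69243 CPM in NAMs (median 37830), 98.1 to 1172 CPM in group 1 (median 279) and 253 to 34603 CPM in group 2 (median 3691), with CYP17A1 the most abundant gene, and MC2R and MRAP at a median of 0 in group 1. A cortical score was taken as the mean over these 11 genes of log2 TMM-normalized CPM, and was 10.07 ± 0.73 (SD, n = 10) in NAMs, 1.52 ± 1.37 (SD, n = 7) in group 1 and 6.67 ± 1.84 (SD, n = 12) in group 2. When it was added to the fit, S100A8, S100A12 and MPO were still called higher and MRC1 still lower in PPGLs, while CSF1 (log2 FC -2.02, SE 0.73), CSF1R (-0.86, SE 0.41), TLR2 (-0.31, SE 0.43) and CSF3R (4.47, SE 2.18) were not called, in a fit that called 1100 genes higher and 891 lower. Of the 4 members no longer called, TLR2 and CSF1 moved toward 0 and CSF1R and CSF3R away from 0, with larger SEs for all. The score overlapped little between NAMs (8.96 to 11.18) and PPGLs (0.03 to 9.94). Score and tissue are thus hard to tell apart in this fit, whether a call was kept or lost. Between the tumor groups this fit called 0 of all 14666 genes, so that score and group cannot be told apart there. In the NAMs the median summed level of the cortical genes (37830 CPM) was above that of the chromaffin genes described below (33280 CPM). The normal samples thus held much RNA of cortical genes beside that of the medulla. The paper writes that cortical cells mixed into its NAM samples can explain the lower steroidogenesis genes of PPGLs. The part of cortical tissue in the levels of the macrophage genes was not tested further.

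Endothelial genes were lower in PPGLs for 5 of 12 tested, against 15.2% of all genes, and higher for 0 (0 also at an unadjusted p below 0.05 and by both other tests), with a summed level of 612 to 1528 CPM in NAMs (median 932), 240 to 1459 CPM in group 1 (median 669) and 381 to 1275 CPM in group 2 (median 587). PECAM1 was the most abundant, and the largest changes were those of TEK (log2 FC -1.14, SE 0.25), KDR (log2 FC -1.09, SE 0.30) and EMCN (log2 FC -0.85, SE 0.29). With the cortical score 2 of the 5, KDR and VWF, were called. Fibroblast genes were higher for 6 of 10, against 22.3% of all genes, and lower for 0 (0 at an unadjusted p below 0.05, but 1 by DESeq2's Wald test and 1 by the Mann-Whitney U-test), with a sum of 708 to 1339 CPM in NAMs (median 888), 566 to 6799 CPM in group 1 (median 2352) and 2113 to 26990 CPM in group 2 (median 3391), the highest sum being that of tumor 11 of group 2, without which LUM was not called and PDGFRA was lower. THY1 was the most abundant, and FAP, COL1A1 and COL3A1 had the largest log2 FCs (4.48, 3.72 and 3.09). These 3 were also the ones called higher by the Mann-Whitney U-test and with the sample number as a block, while with the cortical score THY1 and COL1A1 were called. Both lists were at 0 calls between the tumor groups in the fit reported, where at an unadjusted p below 0.05 endothelial genes gave 1 lower in group 1 and fibroblast genes 5. With all 3 groups in the fit, edgeR's test called 5 of 10 fibroblast genes lower in group 1, against 7.64% of all genes. These were LUM, DCN, PDGFRA, COL1A2 and COL3A1, and DESeq2's Wald test called DCN. Tumor 11, which had the highest levels of most macrophage genes, thus also had the highest fibroblast sum. Of the lists described below, it had the highest sums of T and natural killer cell, B and plasma cell, platelet, and liver and kidney genes. Results of fits without this tumor are given for some genes and lists, and why it stood apart was not tested.

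Blood and lymphoid markers gave mixed values. Of 4 tested erythroid genes 3 were higher in PPGLs (HBM, ALAS2 and AHSP), with GYPC the most abundant and a list sum of 29.9 to 76.8 CPM in NAMs (median 63.3), 9.42 to 203 CPM in group 1 (median 101) and 28.4 to 135 CPM in group 2 (median 74.4). ALAS2 was also lower in group 1 than in group 2 (log2 FC -3.44, SE 0.98, FDR-adjusted p = 0.0580). All 3 platelet genes tested were higher (PPBP, ITGB3 and ITGA2B), with ITGB3 the most abundant and a sum of 2.79 to 8.34 CPM in NAMs (median 4.93), 2.78 to 13.9 CPM in group 1 (median 6.47) and 3.78 to 59.1 CPM in group 2 (median 15.7). HBM was at 0 in the median NAM. Without tumor 11 of group 2, PPBP was not called and AHSP did not pass the filter. Of the platelet genes the Mann-Whitney U-test called ITGA2B alone, and PPBP alone was called with the sample number as a block and with the cortical score. Of the erythroid genes, ALAS2 and HBM were called by the Mann-Whitney U-test and with the block, and all 3 with the cortical score. By edgeR's test with all samples, these erythroid and platelet genes were thus called in the same direction as 4 of the 5 neutrophil members tested, LYZ not being called. Of the further neutrophil genes, 2 of 9 were called higher. Fibroblast genes (6 of 10) and, described below, T and natural killer cell genes (5 of 9, with 1 lower) were called higher as well. The part of none of these lists in the result of the neutrophil members was tested.

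Of 9 tested T and natural killer cell genes 5 were higher in PPGLs, against 22.3% of all genes, the largest changes being those of GZMB (log2 FC 2.22, SE 0.71), CD2 (log2 FC 2.19, SE 0.57) and CD3E (log2 FC 1.93, SE 0.63), and CD5, the most abundant, was lower (log2 FC -2.46, SE 0.52). Their sum was 15.6 to 72.4 CPM in NAMs (median 47.0), 9.76 to 42.3 CPM in group 1 (median 33.7) and 15.0 to 153 CPM in group 2 (median 32.7). Without tumor 11 of group 2, CD8A was not called, and adjusted for the cortical score 0 genes of this list were called. By the Mann-Whitney U-test CD2 and ZAP70 were the genes called higher, and with the sample number as a block CD2 alone, so that GZMB and CD3E were called by neither. Among B and plasma cell genes 1 of 4 was higher (JCHAIN, log2 FC 1.89, SE 0.60), with CD79A the most abundant and a sum of 326 to 636 CPM in NAMs (median 492), 307 to 1266 CPM in group 1 (median 440) and 230 to 1873 CPM in group 2 (median 388). Dendritic cell genes were lower for 2 of 5 (CLEC10A, log2 FC -1.85, SE 0.36, and CADM1, log2 FC -1.14, SE 0.29, which was also the most abundant and higher in group 1 than in group 2), with medians of their sum of 58.2 CPM in NAMs, 44.4 CPM in group 1 and 28.6 CPM in group 2. With the cortical score JCHAIN and CLEC10A were not called. Of 6 tested mast cell genes 1 was higher, GATA2 (log2 FC 2.24, SE 0.32), the most abundant and a factor that chromaffin cells express too, and in group 1 HDC was higher than in group 2 (log2 FC 3.91, SE 1.16), which was not called without tumor 11. Between the tumor groups the fit reported called 0 T and natural killer cell genes of 10, 0 B and plasma cell genes of 3 and 0 platelet genes of 3, where at an unadjusted p below 0.05 they gave 1, 1 and 1 lower and 0, 1 and 0 higher in group 1. With all 3 groups in the fit, IL7R, JCHAIN and ITGB3 were called lower in group 1, and DESeq2's Wald test called IL7R and ITGB3 lower. The medians of the mast cell sum were 99.3 CPM in NAMs, 393 CPM in group 1 and 337 CPM in group 2.

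Chromaffin genes, which mark the tissue that all 3 groups share, were present in every sample, with a sum of 19170 to 100369 CPM in NAMs (median 33280), 8954 to 131477 CPM in group 1 (median 44093) and 23074 to 108683 CPM in group 2 (median 57110) and CHGB as the most abundant gene. Of 14 tested, 4 were higher in PPGLs, against 22.3% of all genes, with PHOX2A (log2 FC 2.17, SE 0.24) and SCG3 (log2 FC 2.01, SE 0.45) the largest, and PNMT was lower (log2 FC -1.94, SE 0.64). HAND2 was higher in group 1 (log2 FC 1.02, SE 0.30). Genes of liver and kidney, which lie next to the gland, were called in both directions (2 higher and 2 lower of 5 tested), with APOA1 the most abundant and FGA, TTR and UMOD at no more than 3 counts in every sample. FGG had log2 FCs of -4.33 (SE 1.08) in PPGLs and of -8.34 (SE 1.47) in group 1, where its median was 0. The sum of this list had medians of 100.1 CPM in NAMs, 47.5 CPM in group 1 and 88.0 CPM in group 2. The part of none of these cell types in the levels of the macrophage and neutrophil genes was tested.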

How the data were processed

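For each Ensembl gene, the deposited values are the count of reads on its exons in each of 29 samples, left unnormalized by the authors, from stranded mRNA libraries read as single ends of 50 bp and aligned to CanFam3.1 with STAR. The submitters' processing notes also name FastQC, Picard and HTSeq. The sample descriptions name featureCounts instead of HTSeq, so the counting tool is uncertain. The strand setting and the treatment of reads that fit several genes are not given in the sources used here, so values of overlapping genes are uncertain. Exons of 2 of the 33 members (CD163 and ITGAM) share bases with another gene. The labels name no library batch.

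Counts were filtered by edgeR's filterByExpr (minimum count 10, minimum total 15), normalized by TMM and tested by edgeR's quasi-likelihood F test with Benjamini-Hochberg adjustment, in all 29 samples for PPGLs against NAMs and in the 19 PPGLs for the groups. The SE is the absolute log2 FC (prior count 0.125) divided by the square root of F. Correlations used log2 CPM with a prior count of 2 and permutation tests. Alternatives tried were library size or DESeq2's size factors, DESeq2's Wald test, the two-sided Mann-Whitney U-test, other filters and thresholds, the cortical score as a covariate, a replicate block from the sample numbers, a fit of all 3 groups and leaving out each sample in turn. Added after seeing the data were fits without tumor 11 of group 2 and NAM 3 together, without tumors 9 and 11 of group 2, lists without tumor 11 or with the cortical score, and correlations without tumor 11 or NAM 3.

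All members are named. Those called in either comparison, and a listed set of main markers, are given with values per group. From each other list up to 3 called genes with the largest absolute log2 FC are named, besides the most abundant gene. The values of 1 listed gene are not reported here. SIGLEC1, TREM2, LYZ, SPI1, IL34, CD47 and some other genes given with ranges, and list genes named beyond 3, were chosen after their values were seen. The members and lists were chosen with earlier results of these data known. The steps were tested on simulated data. The software was DESeq2 1.42.0, edgeR 4.0.16 and limma 3.58.1 in R 4.3.3, with SciPy 1.17.1 and matplotlib 3.10.9 in Python 3.11.15. A search of promoters for motifs was not run, since no promoter sequences were used here, and the pair of S100A8 with S100A9 could not be compared because S100A9 was not found by name.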

Additional observations from a re-analysis of the deposited data

Results flagged for a closer look

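Members with a median of at least 1 CPM over all samples were screened in groups of up to 10 samples, and members below that were not. The highest and the lowest sample of each were compared with the rest of the group by Dixon's ratio of gap to range on log2 TMM-normalized CPM. Of 58 sets of a member and a group screened, 4 had a sample past the 95% critical value, all in NAMs, and chance alone flags about 1 in 20 sets. NAM 3 lay below the other NAMs for CD163 (20.12 CPM, where the next NAM had 68.01 CPM), MRC1 (20.92 CPM, next 52.77 CPM) and SIGLEC1 (4.138 CPM, next 9.696 CPM), which are all receptors of resident macrophages. NAM 10 lay above the others for LYZ (82.12 CPM, next 32.8 CPM). The 3 values of NAM 3 belong to 1 library and are not independent. The cause was not tested.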

How the results depend on the processing

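For PPGLs against NAMs, members called higher numbered 3 to 6 under the alternatives run. With the cortical score as a covariate they were 9.68% of members, against 7.45% of all genes. Without the low-count filter they were 18.2%, against 16.6% of all genes. In the other fits their share was below that of all genes (15.4% to 27.3%). Members called lower, 4 in the fit reported, were 8 by the Mann-Whitney U-test (20.2% of all genes being lower), 1 with the cortical score as a covariate (6.03% of all genes) and 9 without tumor 11 of group 2 and NAM 3 together (15.9% of all genes). For group 1 against group 2, members called lower in group 1 fell from 4 to 1 at an adjusted p below 0.05 (TREM1, against 1.43% of all genes), to 0 by the Mann-Whitney U-test (1.54% of all genes) and to 0 with the cortical score as a covariate (0 of all genes), and were 7 with all 3 groups in the fit (7.64% of all genes). Leaving out each tumor in turn gave 1 to 5 (1.82% to 3.27% of all genes), and leaving out tumors 9 and 11 of group 2 gave 1 (2.69% of all genes). The median log2 FC of the members in this comparison, -0.78, was -2.39 with the cortical score as a covariate and 0.0313 without tumors 9 and 11. Apart from the fits with fewer samples or a stricter threshold, the cause was not tested.

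The sample numbers count different animals in each group. Same-numbered samples did not deviate together: the median correlation over 7 pairs of group 1 and group 2 tumors was -0.043, with none above 0.1, and 2 of 10 pairs of group 2 tumors and NAMs were above it. With the number as a replicate block, members called lower in group 1 were 0 (10 genes higher and 37 lower of all tested) and the median was -0.0097. Group 1 has the numbers 1 to 7, so that tumors 8 to 12 of group 2, tumors 9 and 11 among them, add nothing to this difference, and the block and their absence cannot be told apart. In the same kind of fit between PPGLs and NAMs, 4 were higher and 6 lower, against 15.4% and 16.1% of all genes.

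At an adjusted p below 0.1, SIGLEC1 was also called lower in PPGLs. Changed thresholds, and members not tested in the fit reported, are left out of the counts that follow. For single members, 533 of the values under alternatives other than leaving out 1 sample kept their direction and side of the threshold, 18 passed it newly and 22 no longer passed it. The other 58 changed sign, none of them called before or after. Between PPGLs and NAMs the log2 FCs with the other sign were, with the replicate block, SPI1 -0.30, FCER1G -0.29, LAPTM5 -0.0401, CD80 -0.72, CD86 -0.35, TREM1 -0.84, TREM2 -0.67, LYZ -0.14; with all 3 groups in the fit, SPI1 -0.0965, CD80 -0.59, CD86 -0.14, TREM1 -0.92; without tumor 11 and NAM 3, SPI1 -0.15, FCER1G -0.33, LAPTM5 -0.13, CD80 -0.62, CD86 -0.40, TREM1 -0.56, TREM2 -0.34, LYZ -0.38; by DESeq2's Wald test, FCER1G -0.27, CD80 -0.61, TREM1 -0.59, LYZ -0.30; with the cortical score, ITGAM 0.25, TREM2 -0.28. Between group 1 and group 2 they were, with the replicate block, CD68 0.60, CD163 0.53, MRC1 0.0073, MARCO 1.78, VSIG4 0.0913, AIF1 0.18, CSF1R 0.0971, C1QA 0.22, C1QB 0.15, C1QC 0.20, LAPTM5 0.0098, CCR2 0.0111, CX3CR1 0.0977, CLEC7A 0.48, TREM2 0.0013; without tumors 9 and 11, CD68 0.70, CD163 0.66, MRC1 0.20, MSR1 0.20, VSIG4 0.29, SIGLEC1 0.0797, AIF1 0.35, CSF1R 0.11, C1QA 0.38, C1QB 0.29, C1QC 0.33, LAPTM5 0.016, TLR4 0.0466, CLEC7A 0.41, TREM2 0.16; by library size, MRC1 0.0262; with the cortical score, MPO -3.33. MARCO was not tested between PPGLs and NAMs in the fit reported, so its calls there in 9 fits without 1 NAM are not counted here. With 1 sample left out, 1459 values for single members kept direction and side of the threshold, 7 passed it newly, 29 no longer passed it and 31, of 19 log2 FCs and none of them called, changed sign. The lowest and highest of these 19 were, between PPGLs and NAMs, SPI1 -0.15 to 0.29, FCER1G -0.26 to 0.40, LAPTM5 -0.0485 to 0.40, ITGAM -0.69 to 0.021, CD80 -0.60 to 0.17, CD86 -0.31 to 0.21, CCR2 -0.56 to 0.0908, TREM1 -0.56 to 0.43, TREM2 -0.32 to 0.26, LYZ -0.28 to 0.57, and between group 1 and group 2, CD68 -0.50 to 0.48, CD163 -0.60 to 0.22, MRC1 -0.35 to 0.17, MARCO -4.46 to 0.40, VSIG4 -0.59 to 0.0148, C1QA -0.61 to 0.0985, C1QC -0.63 to 0.0382, CLEC7A -0.43 to 0.24, MPO -0.40 to 0.72. Of the correlations, 3 in NAMs moved by more than their error without NAM 3, to r of 0.27 for C1QA with CSF1R, 0.67 for CSF1 with CSF1R and 0.37 for C1QA with S100A8, which was an alternative chosen after seeing the data. The last 2 changed sign, as did C1QA with S100A8 by library size (r of 0.0627). A search of promoters for motifs was not run. MARCO, CXCR2, MPO, CCR2, TREM1 and S100A12 had no more than 3 counts in at least 1 tumor, which limits their levels there. With a filter of at least 1 CPM, MPO was not tested.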
